A study of Mus musculus with 10 samples.

Results

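A set of 10 genes that mark regulatory T cells were read out in bulk RNA sequencing of T cells from mouse melanomas. They were taken by gene symbol from the table of normalized counts, and all 10 were found among its 48825 genes. They are Foxp3, Il2ra, Ikzf2, Ikzf4, Lrrc32, Ccr8, Nrp1, Itgb8, Gpr83 and Il10. Each also reached 10 normalized counts in 2 libraries, the minimum for a test, as did 15716 genes in all.

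The tumors came from BrafCA; Tyr::CreER; Ptenlox4-5 mice, in which a Cre recombinase driven by the tyrosinase promoter acts in melanocytes after local induction, and every group carried these alleles. Mice that received both the CSF1R inhibitor PLX6134 in chow at 600 mg/kg and the agonistic CD40 antibody FGK4.5 at 10 mg/kg every 3 days (CSF1Ri+CD40) gave 2 libraries. Mice given the antibody with normal chow (CD40) gave 3 libraries, mice given the inhibitor chow without the antibody (CSF1Ri) gave 2, and mice given neither agent (control) gave 3. Normal chow and PBS served as the vehicles. Treatment began 30 days after induction, with tumors under 100 mm3, and ran for 30 days or until tumors reached 2 cm3. Mice were matched for age, and the labels used here give no age in figures. A library pooled 3 or more tumors, so its values are those of a pool and p-values measure the spread between pools. The libraries are named by group and by the number in their title, and the CSF1Ri library without one is called CSF1Ri 1. The labels call the samples T cells in the titles but tumor-associated macrophages in the tissue field, and they give the genotype as wild type.

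Regulatory T cells are the CD4+ T cells that restrain immune responses, and tumors often hold many of them. Foxp3 is the transcription factor that defines the lineage, and Il2ra, a chain of the high-affinity interleukin-2 receptor, lets these cells take up interleukin-2, which signals through STAT5. CSF1R is the receptor on which macrophages depend, and CD40 agonists activate antigen-presenting cells. In bulk RNA, fewer regulatory T cells and less RNA of a gene per cell cannot be told apart.

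The T cell label was checked against marker genes. The summed normalized counts of 11 T cell genes were 142863 to 151995 in the CSF1Ri+CD40 libraries, 107746 to 171872 in the CD40 libraries, 142628 to 155564 in the CSF1Ri libraries and 102700 to 129271 in the control libraries. The sums of 9 macrophage genes were 525 to 884 with CSF1Ri+CD40, 559 to 2595 with CD40, 518 to 866 with CSF1Ri and 862 to 1176 in controls, so T cell genes were high and macrophage genes low in every library. Estimated reads in genes numbered 10300000 to 15000000 in the 8 libraries that allowed an estimate, and total normalized counts lay between 11538244 and 14024851. The library CD40 3 stands apart: it had the highest value of 5 of the 10 genes and the lowest of 2, its nuclear transcript Malat1 was at 95260 normalized counts against 14056 to 59286 in the other libraries, and a fit that weights libraries by their scatter gave it 0.388, the lowest weight. CD40 1 had the highest sums of macrophage (2595), fibroblast (4858), mast cell (12673) and neutrophil (256) genes of the 10 libraries. Y-linked transcripts were present in CD40 2, CD40 3 and control 1 and reached at most 1 normalized count in the other 7 libraries.

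The promoters of Foxp3 and Il2ra are shown because these are the genes on which the results below turn. Both sequences are RefSeq windows on GRCm38.p6, from 250 bases before to 50 bases after a start of transcription, on the plus strand. Windows for 6 of the 10 genes were used here, with a second start for Foxp3. The other Foxp3 window, at X:7579426-7579725, held none of the cores searched and is not shown. Capitals mark an overlapping match to the NFAT core GGAAAA, read on the opposite strand, and to the STAT5 core TTCNNNGAA, at 141 and 139 bases before the start.
Foxp3, chrX:7580233-7580532: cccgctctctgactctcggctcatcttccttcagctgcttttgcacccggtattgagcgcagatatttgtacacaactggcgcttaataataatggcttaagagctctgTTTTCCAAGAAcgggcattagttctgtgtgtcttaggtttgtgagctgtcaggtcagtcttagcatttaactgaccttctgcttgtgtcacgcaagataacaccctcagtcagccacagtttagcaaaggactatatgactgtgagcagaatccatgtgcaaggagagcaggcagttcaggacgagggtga
Il2ra, chr2:11642542-11642841: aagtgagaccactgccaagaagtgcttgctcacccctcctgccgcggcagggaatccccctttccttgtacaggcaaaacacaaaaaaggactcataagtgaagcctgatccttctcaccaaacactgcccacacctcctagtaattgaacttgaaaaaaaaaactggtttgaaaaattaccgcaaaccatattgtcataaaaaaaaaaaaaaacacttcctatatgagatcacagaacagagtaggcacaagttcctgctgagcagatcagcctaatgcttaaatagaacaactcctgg
The cores searched, on both strands, were GTAAACA (forkhead), TTCNNNGAA (STAT5), GGAAAA (NFAT) and TGACGTCA (CREB). They were held by 3.65%, 8.3%, 23.4% and 1.79% of 32851 promoters. Of the 7 windows of the listed genes, only this Foxp3 window held any: the STAT5 and NFAT cores. A match describes letters, and says nothing of binding.

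Foxp3 lies at X:7573644-7595245 on the plus strand in the GENCODE M21 annotation of GRCm38. It was measured at 2673 and 2231 normalized counts in the CSF1Ri+CD40 libraries, at 1693, 1613 and 2713 in the CD40 libraries, at 1841 and 1637 in the CSF1Ri libraries, and at 2639, 1620 and 2543 in the control libraries. The groups overlapped. The CD40 and control groups each split into high and low libraries, while the CSF1Ri libraries were both low and the CSF1Ri+CD40 libraries both in the upper range. The means were 2450 ± 313 (SD, n = 2) with CSF1Ri+CD40, 2010 ± 613 (n = 3) with CD40, 1740 ± 144 (n = 2) with CSF1Ri and 2270 ± 563 (n = 3) in controls. In order of mean log2 level, CSF1Ri+CD40 came first, then control, CD40 and CSF1Ri, and the gaps between neighbours, 0.14, 0.18 and 0.17, were all below the pooled SD of 0.34. Fold changes were estimated with limma on log2(normalized count + 1) over all 15716 genes and p-values were adjusted over all of them by the Benjamini-Hochberg method, with 0.05 as the threshold. The log2 fold change of Foxp3 was 0.14 ± 0.29 (SE) for CSF1Ri+CD40 over control, with a 95% confidence interval of -0.50 to 0.78. It was -0.18 ± 0.26 for CD40 over control and -0.35 ± 0.29 for CSF1Ri over control, and none passed the test. The departure of CSF1Ri+CD40 from the sum of both single treatments was 0.68 ± 0.41 (interval -0.23 to 1.58, adjusted p = 0.991 by limma).

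Across the 9 comparisons of groups, 0 of the 10 genes passed the adjusted threshold in limma, and the smallest adjusted p among the 90 fits was 0.838. Over all genes, the share that passed was 0.00636% for CD40 over control and for CSF1Ri over control, and 0% for the other 7. Without adjustment, 6 of the 90 fits had a p under 0.05. All were fits of Il10, Itgb8 or Gpr83, in comparisons that share libraries. By comparison, the unadjusted share over all genes was 5.4% for CSF1Ri+CD40 over control, 6.39% for CD40 over control, 4.08% for CSF1Ri over control, 4.96% for CSF1Ri+CD40 over CD40, 3.82% for CD40 over CSF1Ri, 4.67% for CD40 averaged over both chows and 4.6% for CSF1Ri averaged over both antibody states. For CSF1Ri+CD40 over control, 8 of the 10 genes had a positive log2 fold change and the median was 0.22, against a median of -0.002 over all genes. For CD40 over control 6 were positive, with a median of 0.14, and for CSF1Ri over control 5 were, with a median of -0.03. These comparisons share the control libraries.

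**Figure D1:**
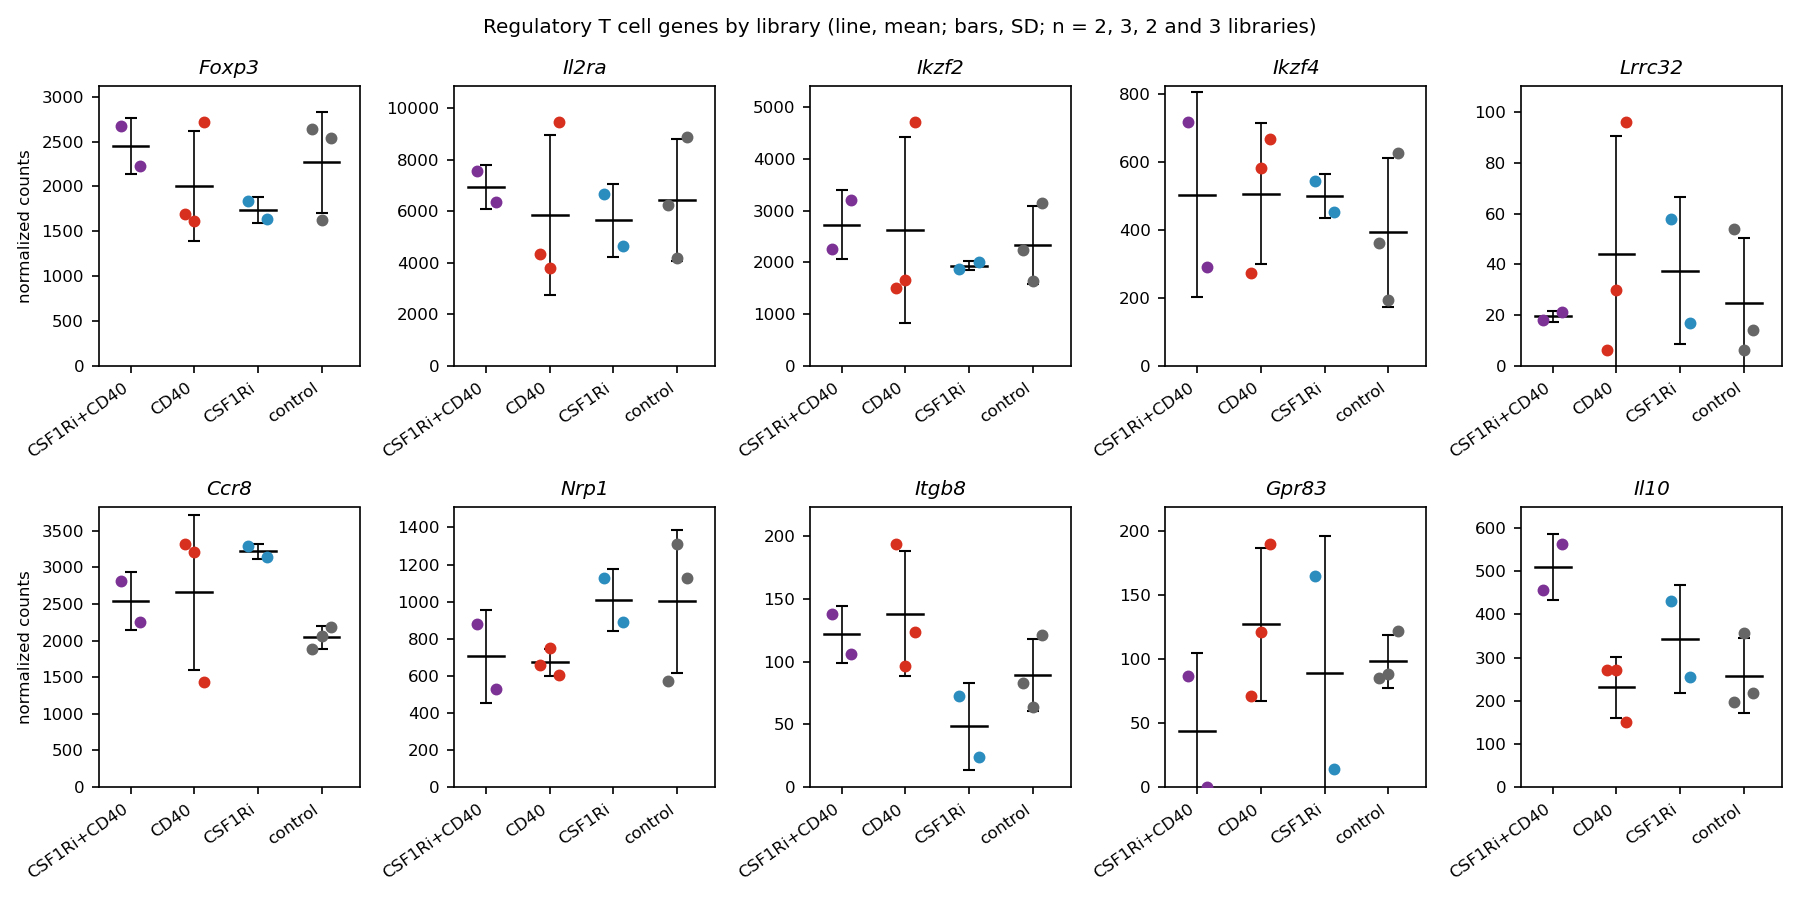
Normalized counts of the 10 genes, each point a library, with the mean as a line and the SD as bars; the groups are CSF1Ri+CD40 (n = 2), CD40 (n = 3), CSF1Ri (n = 2) and control (n = 3), on linear axes from 0. The groups overlap for most genes; both CSF1Ri+CD40 libraries lie above all controls for Il10 and Ccr8, and both CSF1Ri libraries do so for Ccr8.

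Il2ra, at 2:11642807-11693193 on the plus strand, was measured at 7544 and 6350 normalized counts with CSF1Ri+CD40, at 4337, 3797 and 9446 with CD40, at 6655 and 4633 with CSF1Ri, and at 6230, 4184 and 8900 in controls. Its high and low libraries were largely those of Foxp3: CD40 3 was the highest and CD40 2 the lowest for both. The log2 fold changes over control were 0.17 ± 0.39 for CSF1Ri+CD40, -0.19 ± 0.35 for CD40 and -0.15 ± 0.39 for CSF1Ri, none past the threshold. Reads of Gm37881, which lies within the gene on the same strand, reached at most 133 normalized counts.

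Ikzf2, at 1:69531214-69687245 on the minus strand, encodes Helios, an Ikaros family transcription factor found in many regulatory T cells. It was measured at 2256 and 3198 normalized counts with CSF1Ri+CD40, at 1508, 1658 and 4706 with CD40, at 1869 and 1998 with CSF1Ri, and at 2228, 1642 and 3143 in controls. CD40 3 stood above every other library, and the groups overlapped. Ikzf4 encodes Eos, an Ikaros family partner of Foxp3 in gene repression. It was at 716 and 289 with CSF1Ri+CD40, at 272, 581 and 666 with CD40, at 545 and 453 with CSF1Ri and at 360, 192 and 627 in controls. Each group except CSF1Ri spread over 2-fold or more within itself. The largest log2 fold change over control of Ikzf2 was 0.25 ± 0.44 and of Ikzf4 0.50 ± 0.56, neither past the threshold. Of 3 further Ikaros genes, 0 passed the test in any comparison.

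Ccr8, at 9:120092114-120094906 on the plus strand, encodes a chemokine receptor carried by tumor regulatory T cells and was measured at 2816 and 2257 normalized counts with CSF1Ri+CD40, at 3318, 3212 and 1440 with CD40, at 3289 and 3142 with CSF1Ri, and at 1882, 2059 and 2184 in controls. Both CSF1Ri+CD40 and both CSF1Ri libraries lay above all controls, while CD40 3 lay below them. The log2 fold change over control was 0.31 ± 0.33 with CSF1Ri+CD40, 0.29 ± 0.29 with CD40 and 0.66 ± 0.33 with CSF1Ri (interval -0.06 to 1.37, adjusted p = 1 by limma), so none passed. Il10, an anti-inflammatory cytokine gene at 1:131019845-131024974 on the plus strand, was at 456 and 563 with CSF1Ri+CD40, at 272, 272 and 150 with CD40, at 432 and 254 with CSF1Ri and at 198, 357 and 217 in controls. Both CSF1Ri+CD40 libraries exceeded the 8 other libraries. The log2 fold change was 1.02 ± 0.44 for CSF1Ri+CD40 over control (adjusted p = 0.914 by limma) and 1.18 ± 0.44 over CD40 (adjusted p = 0.939 by limma), and neither passed the test. Of the 10 genes, 2 did not overlap with controls in CSF1Ri+CD40, 0 in CD40 and 1 in CSF1Ri. Over all genes the share without overlap was 20.2%, 9.1% and 21.9%, so the counts stand near or below the background. Such shares were counted only for each treated group against controls. Other separations of libraries described here have no share beside them. Macrophages and mast cells can also express Il10. The macrophage sums are given above, and their genes differed in direction. Cd68 was at 266 to 419 with CSF1Ri+CD40 against 79 to 242 in controls, and Csf1r at 30 to 41 against 106 to 120. The sums of 5 mast cell genes were 1328 to 6709 with CSF1Ri+CD40, 1522 to 12673 with CD40, 589 to 1357 with CSF1Ri and 238 to 1057 in controls. The part of macrophages, of mast cells and of T cells other than regulatory T cells in the Il10 values was not tested.

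Nrp1, a surface receptor for semaphorins, was measured at 882 and 528 normalized counts with CSF1Ri+CD40, at 659, 751 and 606 with CD40, at 1126 and 891 with CSF1Ri and at 570, 1311 and 1126 in controls. The libraries of the antibody groups lay between 528 and 882, but control 1 lay among them. Averaged over both chows, the log2 fold change with CD40 was -0.52 ± 0.26 (interval -1.10 to 0.05, adjusted p = 1 by limma). Itgb8 and Lrrc32 belong to the activation of latent TGF-beta, the first as an integrin chain and the second as the protein GARP that holds it on the cell surface. Itgb8 was at 138 and 106 with CSF1Ri+CD40, at 194, 97 and 124 with CD40, at 73 and 24 with CSF1Ri and at 83, 64 and 121 in controls. The CSF1Ri libraries were below all libraries of the antibody groups, and the log2 fold change for CD40 over CSF1Ri was 1.64 ± 0.65 (adjusted p = 1 by limma). The share of all genes separated in this way was not counted. Lrrc32 was at 18 and 21 with CSF1Ri+CD40, at 6, 30 and 96 with CD40, at 58 and 17 with CSF1Ri and at 54, 6 and 14 in controls, and its spread within groups exceeded that between them. Gpr83, a G protein-coupled receptor gene high in regulatory T cells, was listed at 87 and 0 with CSF1Ri+CD40, at 71, 121 and 190 with CD40, at 165 and 14 with CSF1Ri and at 85, 88 and 122 in controls. Its log2 fold change of -3.39 ± 1.56 for CSF1Ri+CD40 over control rested on the library CSF1Ri+CD40 3, and was -0.16 without it. The value depends on the 1 added before logs.

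**Figure D2:**
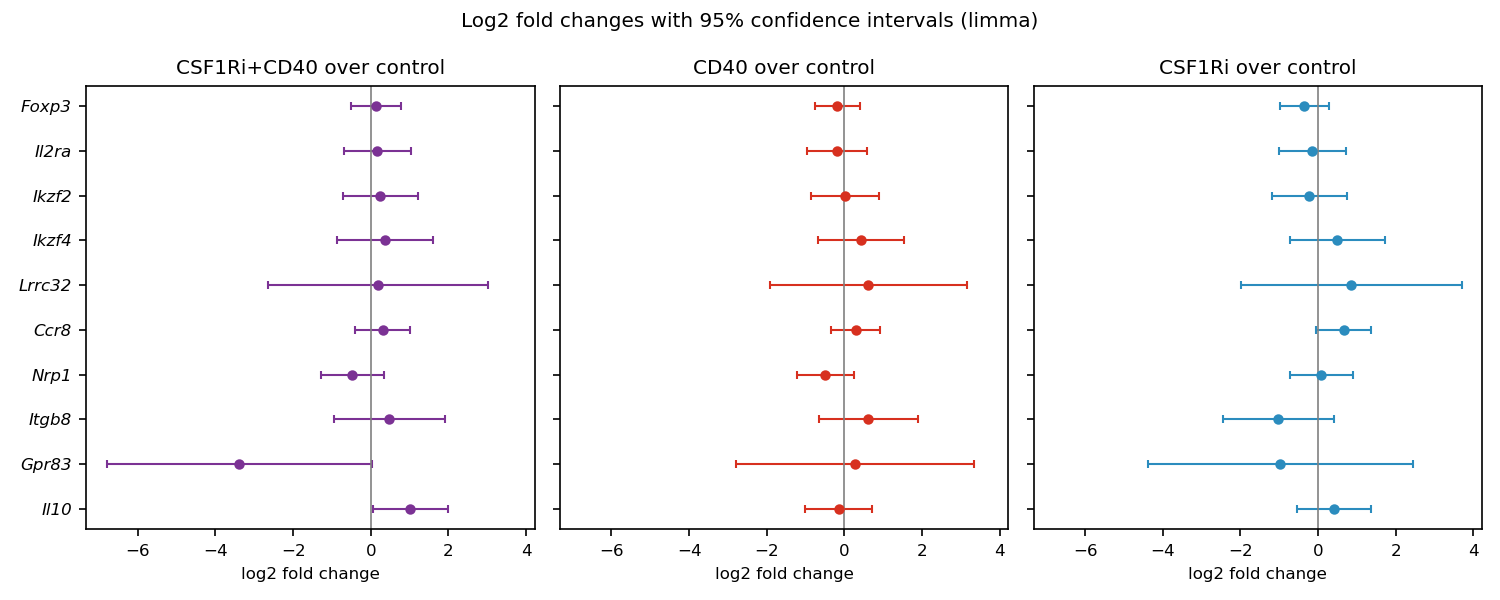
Log2 fold changes of the 10 genes over control with 95% confidence intervals from limma, for CSF1Ri+CD40 (left), CD40 (middle) and CSF1Ri (right). The interval of Foxp3 spans 0 in each panel, from -0.50 to 0.78 for CSF1Ri+CD40; that of Il10 for CSF1Ri+CD40 lies above 0, with an adjusted p of 0.914 (limma).

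Levels between genes were compared as normalized counts per kilobase of all exons of a gene, which counts the exons of every isoform. Means over the 10 libraries were 2180 for Ccr8, 1090 for Il2ra, 463 for Foxp3, 242 for Il10, 208 for Ikzf2, 86.4 for Nrp1, 78.4 for Ikzf4, 18.5 for Gpr83, 9.26 for Itgb8 and 6.83 for Lrrc32. The ranges over libraries overlapped between each gene and its neighbour in this order, except that all Il2ra values, from 665, lay above all Foxp3 values, up to 593, that Ikzf2 at 130 or more and Nrp1 at 134 or less met only at their edges, and that Ikzf4, at 32 or more, met Gpr83, at 37.3 or less, likewise only at the edges.

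The ratio of Foxp3 to Cd4, the co-receptor of helper and regulatory T cells, sets Foxp3 against the CD4+ cells of a library. Cd4 itself was measured at 4203 and 2403 normalized counts with CSF1Ri+CD40, at 2764, 2794 and 3738 with CD40, at 3591 and 4504 with CSF1Ri and at 2146, 2226 and 2364 in controls, so every treated library exceeded every control. The sums of 5 erythroid genes also separated the groups, at 13 and 501 with CSF1Ri+CD40, 876, 1195 and 942 with CD40, 1318 and 2729 with CSF1Ri and 13071, 15906 and 2940 in controls, and their part in the differences from controls was not tested. The log2 ratio of Foxp3 to Cd4 was -0.65 and -0.11 with CSF1Ri+CD40, -0.71, -0.79 and -0.46 with CD40, -0.96 and -1.46 with CSF1Ri, and 0.30, -0.46 and 0.11 in controls. Both CSF1Ri libraries lay below all others, and the CD40 libraries lay below the controls, though CD40 3 and control 2 print alike. The mean log2 ratio with CSF1Ri was 1.19 below that of controls, a 2.29-fold lower ratio, with an exact two-sided permutation p of 0.1, the smallest that 2 libraries against 3 allow. With CD40 it was 0.64 below (1.55-fold, exact permutation p = 0.1, again the smallest), and with CSF1Ri+CD40 0.36 below, with overlap (exact permutation p = 0.4).

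Cd8a, the co-receptor gene of cytotoxic T cells, was at 3785 and 4947 with CSF1Ri+CD40, at 3949, 2744 and 1051 with CD40, at 3223 and 3685 with CSF1Ri and at 1911, 1691 and 1475 in controls. The log2 ratio of Foxp3 to Cd8a was -0.50 and -1.15 with CSF1Ri+CD40, -1.22, -0.77 and 1.37 with CD40, -0.81 and -1.17 with CSF1Ri, and 0.47, -0.06 and 0.79 in controls. Libraries of the inhibitor groups lay below all controls, and CD40 3 lay above every other library, with Cd8a at its lowest. The ratio was 2.33-fold lower than in controls with CSF1Ri+CD40 and 2.61-fold lower with CSF1Ri, each with an exact permutation p of 0.1, the smallest possible, and 1.52-fold lower with CD40, with overlap (exact permutation p = 0.5).

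Effects averaged over the other treatment can reach lower p-values. The inhibitor shifted the log2 ratio by -0.46 for Cd4 (exact permutation p = 0.24, adjusted p = 0.48 over 4 tests) and by -1.0 for Cd8a (exact permutation p = 0.12, adjusted p = 0.48). The Cd8a value was -0.48 over the 7 libraries with at most 1 Y-linked count, which include all libraries of the inhibitor groups. It was -0.49 with CD40 1 as the only CD40 library. The first restriction also leaves CD40 1 as the only CD40 library, so they differ only by control 1 and are not separate checks. The antibody shifted the log2 ratio by 0.10 for Cd4 (exact permutation p = 0.767) and by -0.22 for Cd8a (exact permutation p = 0.617). For Cd8a the same restrictions gave -0.71 and -0.73. None of the 4 averaged shifts passed. Averaged likewise, the log2 fold change with the inhibitor was -0.01 ± 0.21 (SE) for Foxp3, 0.45 ± 0.18 for Cd4 and 0.99 ± 0.30 for Cd8a. With the antibody it was 0.15 ± 0.21, 0.06 ± 0.18 and 0.37 ± 0.30. None of these fold changes passed in limma. Against Cd3e, a gene of all T cells, the mean log2 ratio of Foxp3 was -3.22 ± 0.15 (SD, n = 2) with CSF1Ri+CD40, -3.16 ± 0.37 (n = 3) with CD40, -3.60 ± 0.29 (n = 2) with CSF1Ri and -2.75 ± 0.39 (n = 3) in controls. For the antibody and Cd4 the 2 chows differed in sign: 0.83 in CSF1Ri+CD40 over CSF1Ri, and -0.64 in CD40 over control. For the inhibitor and Cd4 the antibody states differed in sign too. The difference was 0.27 in CSF1Ri+CD40 over CD40, with overlap, and -1.19 in CSF1Ri over control. For the inhibitor and Cd8a both differences were negative, at -0.62 and -1.39.

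**Figure D3:**
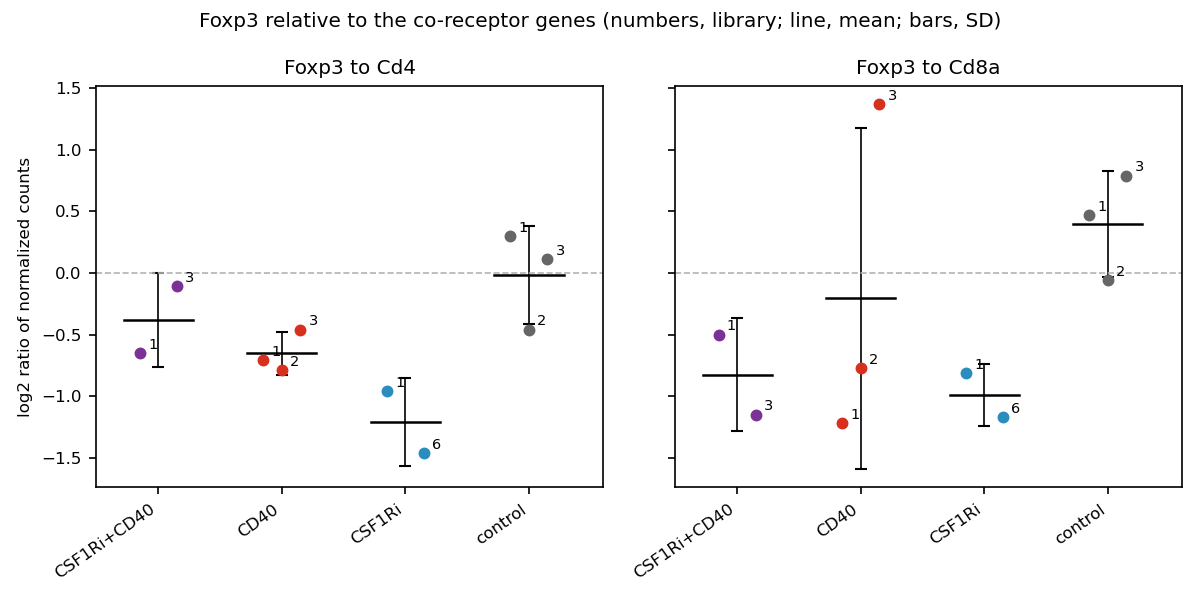
Log2 ratio of Foxp3 to Cd4 (left) and to Cd8a (right) by library, with library numbers beside the points, the group mean as a line and the SD as bars. The CSF1Ri libraries are lowest for Cd4, at -0.96 and -1.46, and CD40 3 is highest for Cd8a, at 1.37.

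The genes were compared with Foxp3 across the 10 libraries, as 9 relations on log2(normalized count + 1), with permutation p-values adjusted over them. Il2ra followed Foxp3 most closely, with Pearson r = 0.88 and Spearman rho = 0.88 (adjusted permutation p = 0.0177 and 0.0148). Ikzf2 came next, with r = 0.77 and rho = 0.78 (adjusted permutation p = 0.0358 and 0.0455). The departures from group means gave r = 0.92 for Il2ra and 0.78 for Ikzf2. Without CD40 3 and CSF1Ri+CD40 1, the libraries farthest from the median of Foxp3, r was 0.84 and 0.79, and over the 7 libraries with at most 1 Y-linked count it was 0.90 and 0.77, with adjusted permutation p-values above 0.05 in each. The call for Il2ra was lost without CD40 3 alone (r = 0.86, adjusted permutation p = 0.0732), and that for Ikzf2 without CD40 1, CD40 2, CD40 3, CSF1Ri 1, CSF1Ri 6, control 2 or control 3, with r between 0.74 and 0.78. Foxp3 values were uneven: 5 libraries were at or below 1841 and 5 at or above 2231, a gap of 390, against 312 for the next widest. Malat1 had r = 0.62 with Foxp3, 0.67 with Il2ra and 0.81 with Ikzf2 (adjusted permutation p = 0.146, 0.114 and 0.0402 over 10 relations), so among these 3 the relation with Ikzf2 passed. Spearman's rho was 0.49, 0.54 and 0.68 (adjusted permutation p = 0.271 for each), and without the 2 libraries farthest in Malat1 r was 0.38, 0.40 and 0.62. With Malat1 regressed out, r was 0.81 for Il2ra and 0.58 for Ikzf2 (adjusted permutation p = 0.0626 and 0.321). The part of nuclear RNA content in these relations was not tested beyond these values.

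Not all of the genes had a positive r with Foxp3. Ccr8 had r = -0.64 and rho = -0.54 with Foxp3 (adjusted permutation p = 0.138 and 0.243). Il10 had r = -0.24 over all libraries (adjusted permutation p = 0.564) and -0.79 over departures from the group means (adjusted permutation p = 0.0228). Over the 7 libraries with at most 1 Y-linked count, r was -0.31 for Ccr8 and 0.22 for Il10. With Malat1 regressed out it was -0.45 and 0.10. Malat1 had r = -0.57 with Ccr8 and -0.50 with Il10 (adjusted permutation p = 0.179 and 0.205). Over all libraries, Lrrc32 had r = 0.48, Ikzf4 0.46, Itgb8 0.42, Gpr83 0.07 and Nrp1 -0.34, none past the threshold. Over departures from the group means, Lrrc32 had r = 0.76 and Ikzf4 0.71 (adjusted permutation p = 0.0282 and 0.041). The departures of a group sum to 0, leaving 6 degrees of freedom among 10 values, and the permutations do not account for this, so these p-values are too small. Among the 15715 other tested genes ranked by r with Foxp3, Il2ra stood at 42, Ikzf2 at 362 and Ccr8 at 14634. Of 12 genes listed as lower in regulatory than in other T cells, 7 had a positive and 5 a negative r with Foxp3. They ran from 0.82 for Pde3b to -0.72 for Il2, with Satb1 at 0.80 and Lef1 at 0.78. A high r with Foxp3 was therefore not limited to genes of regulatory T cells. The 8 genes with a mean of 100 or more and the highest r over the 10 libraries were Acin1 (0.958), Cyfip2 (0.955), AI504432 (0.951), Lrrc8a (0.948), Ube2h (0.947), Sec23ip (0.947), Slc7a1 (0.946) and Pced1b (0.934). All were chosen for that r, so it is a description.

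**Figure D4:**
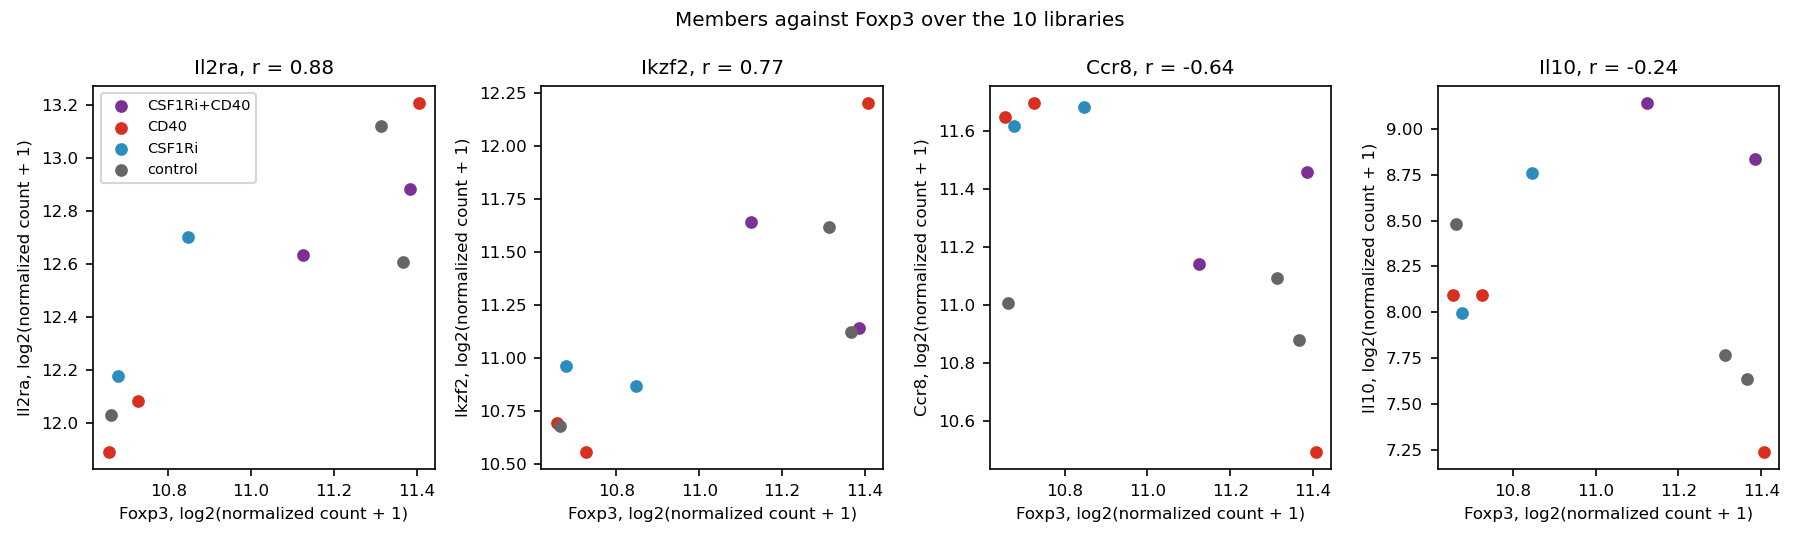
Il2ra, Ikzf2, Ccr8 and Il10 against Foxp3, each as log2(normalized count + 1), with a point per library colored by group. Il2ra (r = 0.88) and Ikzf2 (r = 0.77) run upward with Foxp3, Ccr8 (r = -0.64) runs downward, and Il10 has r = -0.24 over all libraries, with both CSF1Ri+CD40 libraries above the rest.

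Among 32 other genes often high in regulatory T cells, 0 passed the test in any comparison, and for CSF1Ri+CD40 over control 19 had higher and 13 lower means, with a median log2 fold change of 0.07. Entpd1, which encodes the ectonucleotidase CD39, had the smallest p: it was at 1106 and 1682 normalized counts with CSF1Ri+CD40, at 541, 383 and 373 with CD40, at 572 and 541 with CSF1Ri and at 355, 333 and 244 in controls. Both CSF1Ri+CD40 libraries lay above all others, and the log2 fold change over control was 2.15 ± 0.33 (adjusted p = 0.216 by limma). Tigit, an inhibitory receptor gene, had a log2 fold change of 1.05 ± 0.31 and Tnfrsf9, a costimulatory receptor gene, one of 0.81 ± 0.26 (adjusted p = 0.761 and 0.783 by limma). Of these 32 genes, 18 had a positive and 13 a negative r with Foxp3, from 0.86 for Swap70 to -0.73 for Itgae, against 7956 positive and 7759 negative over all genes; Ctla4 had 0.59, Tnfrsf4 -0.67 and Tnfrsf18 -0.71.

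Of 12 genes of interleukin-2 signaling through STAT5, 0 passed. Il2rb, the shared beta chain of the receptor, had a log2 fold change of 0.72 ± 0.18 and Stat5b one of -1.07 ± 0.26 with the inhibitor averaged over both antibody states (adjusted p = 0.994 by limma for each). Stat5b was at 443 and 385 with CSF1Ri+CD40, at 465, 747 and 983 with CD40, at 507 and 260 with CSF1Ri and at 988, 916 and 940 in controls, so all inhibitor libraries lay below all controls. Cish, a feedback inhibitor induced by STAT5, had 0.45 ± 0.17 (adjusted p = 0.994 by limma). Of 17 genes for ligands, receptors and partners of the 10 genes, Sema3a was at 0 in every library, 16 were tested and 0 passed. Ccl1, the ligand of Ccr8, ranged from 505 in control 1 to 14214 in CD40 2. Of the 12 genes listed as lower in regulatory than in other T cells, 1 passed. Il17a, a cytokine gene of another helper lineage, fell with CD40 (adjusted p = 0.00879 by limma), to 485, 155 and 128 normalized counts, against 3182, 3672 and 4222 in controls. That call was lost without CD40 2, control 1, control 2 or control 3, and also under the replicate block, without a filter on low values, over the libraries with at most 1 Y-linked count and in a fit of only these 2 groups. In each of these, 0 genes passed for this comparison.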

How the data were processed

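Bulk RNA sequencing of 10 libraries in 4 groups was used. Per the labels' protocols, 50 ng of RNA went into unstranded SMARTer libraries, read as 75-base pairs. The submitters' processing notes name STAR for alignment (GRCm38), HTSeq for counting and DESeq2 for normalization, with versions not given in the sources used here. The deposited values are scores: the authors divided counts by size factors and rounded them to whole numbers, so no count model was run.

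Values were taken to log2 after adding 1. Genes with at least 10 normalized counts in 2 libraries were fitted with limma 3.58.1 (R 4.3.3) with a variance trend, on 6 residual and 5.48 prior degrees of freedom, in 9 comparisons. Tests are two-sided, with Benjamini-Hochberg adjustment. Ratios used exact permutation and correlations 100000 resamples. The members and lists were chosen with earlier results of these data known. Named genes are the 10 members, 3 denominator genes, up to 4 genes per list with the smallest p and the 8 most like Foxp3. Further genes were named after their values were seen: Ctla4, Tnfrsf4, Tnfrsf18, Swap70, Itgae, Pde3b, Il2, Satb1, Lef1, Cd68 and Csf1r. Other steps used Python 3.11.15 (scipy 1.17.1, numpy 2.4.6, pandas 2.3.3; figures in matplotlib 3.10.9). The fit was tested on simulated data with a smooth spread, no outlying library and changes placed only in genes with higher counts. That test therefore does not cover a library like CD40 3 or genes with low counts such as Gpr83. Libraries were not taken as paired, since the numbers in the titles are not said to pair them. Same-number correlations of departures ran from -0.27 to 0.18 over 7 pairs. Pairs of unlike number were not set beside them, so these values do not decide the matter. Genes overlapping Foxp3, such as Ccdc22 (at most 178), cannot be separated by strand.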

Additional observations from a re-analysis of the deposited data

Results flagged for a closer look

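The difference with the antibody in the log2 ratio of Foxp3 to Cd4 had opposite signs by chow. It was 0.83 in CSF1Ri+CD40 over CSF1Ri (exact permutation p = 0.333) and -0.64 in CD40 over control (exact permutation p = 0.1). Each p is the smallest that the group sizes allow, so neither pair could pass. Neither pair of groups overlapped, though CD40 3 and control 2 both print as -0.46. The difference between the chows was not tested. With 2 or 3 libraries per group, no test for an outlying library within a group was run.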

How the results depend on the processing

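No gene of the 10 passed in any of 25 settings, the smallest adjusted p being 0.0935 (limma).

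Genes passing for CSF1Ri+CD40 over control numbered 1 with a pseudocount of 10, with a mean of at least 50, with a term for Y-linked transcripts and with CD40 1 as the only CD40 library, and 13 without the variance trend. For CD40 over control they numbered 0 with no low-value filter, the replicate block, only libraries with at most 1 Y-linked count, or only the compared groups, 2 without the trend and 2 with CD40 1 alone. For CSF1Ri over control they numbered 0 with a pseudocount of 10, no filter, a mean of at least 50, quantile normalization, terms for Y-linked transcripts or Malat1, CD40 1 alone, at most 1 Y-linked count, or the compared groups, and 6 without the trend. Without the trend they numbered 9 for CSF1Ri+CD40 over CD40, 15 over CSF1Ri, 6 for CD40 over CSF1Ri, 6 for the interaction, 10 for averaged CD40 and 12 for averaged CSF1Ri; sample weights gave 2 for CD40 over CSF1Ri. These restrictions to CD40 1 or to few Y-linked counts, and the Malat1 regression of r, were chosen after seeing the data. In some settings 1 library stays in a group, as in CSF1Ri+CD40 or CSF1Ri without either of its libraries. The same holds for CD40 with CD40 1 alone and with at most 1 Y-linked count. The spread then comes from the other groups, and that library is assumed to vary like theirs. Leaving out 1 library gave 0 to 36 for CSF1Ri+CD40 over control (36 without CSF1Ri+CD40 1, 7 without CSF1Ri+CD40 3), 0 to 3 for CD40 over control, 0 for CSF1Ri over control, 0 to 20 for CSF1Ri+CD40 over CD40, 0 to 6 over CSF1Ri, 0 to 2 for CD40 over CSF1Ri and for the interaction, 0 to 3 for averaged CD40 and 0 to 1 for averaged CSF1Ri.

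The averaged CD40 shift of Foxp3 to Cd4 turned to -0.01 with Cd3e as denominator, -0.12 with Cd4 plus Cd8a and -0.05 with means over all libraries; leaving out 1 library gave -0.04 to 0.23, and -0.61 to 0.03 for Cd8a. The averaged CSF1Ri shifts then ranged from -0.60 to -0.32 for Cd4 and from -1.26 to -0.61 for Cd8a. Over all libraries the Cd4 shift was the average of 0.27 with the antibody and -1.19 without it. For Cd8a, with at most 1 Y-linked count and with CD40 1 alone, the CD40 shift was -0.71 and -0.73 and the CSF1Ri shift -0.48 and -0.49. Both settings keep CD40 1 as the only CD40 library. With Cd3e as denominator the CSF1Ri shift was -0.45. For r with Foxp3, values were 0.84, 0.81 and 0.90 for Il2ra and 0.79, 0.58 and 0.77 for Ikzf2 without the 2 farthest libraries, with Malat1 regressed out and with at most 1 Y-linked count. Leaving out 1 library gave 0.86 to 0.93 and 0.74 to 0.84.

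Scaling to Cd3e, Cd3d and Cd3g shifted the median log2 fold change of all genes for CSF1Ri+CD40 over control to -0.37, and there turned Foxp3 to -0.23, Il2ra to -0.20, Ikzf2 to -0.12, Ikzf4 to 0.00, Lrrc32 to -0.17 and Ccr8 to -0.07, all above that median. Under the replicate block Foxp3 was -0.04, Il2ra -0.09 and Lrrc32 -0.11, and the interaction of Lrrc32 was 0.69 with CD40 1 alone. Leaving out control 2 turned Foxp3 to -0.09, Il2ra to -0.11, Ikzf4 to -0.06 and Lrrc32 to -0.49, leaving out CSF1Ri+CD40 1 turned Ikzf4 to -0.28, and leaving out CSF1Ri+CD40 3 brought Ikzf2 to 0.00. Over single libraries left out, the highest values for CSF1Ri+CD40 over control were 0.27 for Foxp3, 0.44 for Il2ra, 0.50 for Ikzf2, 1.02 for Ikzf4 and 1.0 for Lrrc32. The causes were not tested. Intervals cover the spread between 2 or 3 pools, and Lrrc32, Gpr83 and Itgb8 are limited by low counts.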
